A study of Homo sapiens with 36 samples.

Results

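A group of 10 genes that encode transcription elongation factors were examined for RNA bound by SCAF4 and SCAF8. The 10 genes were SUPT5H, SUPT6H, the FACT genes SUPT16H and SSRP1, the PAF complex genes PAF1, CTR9, LEO1, CDC73 and RTF1, and TCEA1. They are 10 of 20033 protein-coding genes of GENCODE release 44 on GRCh38, of which 9830 held at least 1 PAR-CLIP cluster. A cluster was counted for a gene when its midpoint lay within the gene body on the transcribed strand. By this rule 434 of 278185 clusters fell in the 10 genes, 345 of them in the SCAF4 and SCAF8 IPs, 19 in the control IP and 70 in inputs. The genes were listed by the complexes their proteins belong to.

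RNA polymerase II needs accessory proteins to move through a gene. DSIF, of which SUPT5H encodes the large subunit, and the PAF complex ride with the polymerase, SUPT6H and FACT handle histones in its path, and TFIIS, encoded by TCEA1, restarts polymerase that has backtracked. SCAF4 and SCAF8 are RNA-binding proteins that also bind the phosphorylated C-terminal domain of the polymerase, so the transcripts examined here encode proteins of the machinery on which they act.

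PAR-CLIP is a method in which cells incorporate the photoreactive nucleoside 4SU into RNA, protein and RNA are crosslinked with UV, and the RNA recovered with a protein is sequenced. The cells were Flp-In T-REx HEK293, an embryonic kidney line, and all carried the wild-type SCAF4 and SCAF8 genes. Cells of the first line expressed FLAG-SCAF4 and those of the second FLAG-SCAF8 from a doxycycline-inducible construct added to the endogenous gene (100 ng/mL doxycycline per the labels), and parental cells without a FLAG-tagged protein served for the control IP. The study's methods give a higher dose of doxycycline and name the parental cells among those treated, whereas the labels name the tagged lines alone, and the lists do not settle this. All cells received 100 μM 4SU overnight and 500 μM 4SU for 2 h, and were irradiated with 2000 J/m2 at 365 nm. Each line gave 3 replicates of a FLAG IP and of an input taken from the same extract before the IP, which makes 6 groups and 18 lists of clusters. How far the tagged proteins exceeded the endogenous ones cannot be read from the lists, and the lists hold no expression values against which the line could be checked. The study's methods call the replicates biological. The labels do not say whether they were separate cultures, and if they were not, p-values measure technical spread only.

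The lists held 1621 to 54404 clusters, and depth in reads is unknown. SCAF4 IP lists held 18991 to 54404 clusters, SCAF8 IP lists 18287 to 41502, control IP lists 1621 to 9638 and inputs 4567 to 12493. Cluster numbers per gene were therefore scaled to 10000 clusters of the list. A gene's share of a list depends on how much of its RNA was present as well as on crosslinking, and RNA levels were not used here.

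For 6 genes a stretch bound in all 6 SCAF4 and SCAF8 IP lists is shown, to give the letters behind the most widely shared regions. Regions with UTR bases were left out of this choice, so that the coding position of the stretches is no result. Regions were made by merging overlapping clusters of the 6 lists, and the sequences are GRCh38, 5′ to 3′ on the transcribed strand. Capitals mark matches to CGG or CGA, to any of the 4 motifs built around CAG (CCAGC, the motif CCAGG, the motif GCAGC and the motif GCAGG), to CTCC and to the motif CACC, searched on the transcribed strand only. Adjacent or overlapping matches join into 1 run of capitals, and a match is a run of letters, not a shown site. SUPT5H is given at chr19:39470114-39470276 (plus strand), exon 17 with 5 intronic bases before it and 2 after it, where no control IP or input list had a cluster. LEO1 is given at chr15:51965756-51966055 (minus strand), 300 bases of exon 2 from a region of 776 bases, also without a control IP or input cluster. PAF1 is given at chr19:39388547-39388697 (minus strand), exon 10 with 21 intronic bases before and 13 after, where 1 input list had a cluster. SUPT6H is given at chr17:28684844-28684996 (plus strand), exon 19 and the first 35 bases of intron 19, where 1 control IP list had a cluster. SUPT16H is given at chr14:21370265-21370564 (minus strand), exon 4 with 76 intronic bases before and 71 after, where 1 control IP list and 2 input lists had a cluster. SSRP1 is given at chr11:57326706-57326880 (minus strand), within exon 16, where 1 control IP list and 3 input lists had a cluster.
SUPT5H: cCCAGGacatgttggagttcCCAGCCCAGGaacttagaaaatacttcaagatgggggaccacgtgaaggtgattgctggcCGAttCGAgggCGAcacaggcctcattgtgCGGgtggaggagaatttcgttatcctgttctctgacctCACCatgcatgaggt
LEO1: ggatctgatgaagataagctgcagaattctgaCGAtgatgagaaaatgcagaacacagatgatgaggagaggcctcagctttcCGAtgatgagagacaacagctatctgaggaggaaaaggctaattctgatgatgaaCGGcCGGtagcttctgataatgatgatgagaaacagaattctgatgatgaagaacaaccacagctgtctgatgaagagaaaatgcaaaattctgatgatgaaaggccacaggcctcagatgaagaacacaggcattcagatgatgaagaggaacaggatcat
PAF1: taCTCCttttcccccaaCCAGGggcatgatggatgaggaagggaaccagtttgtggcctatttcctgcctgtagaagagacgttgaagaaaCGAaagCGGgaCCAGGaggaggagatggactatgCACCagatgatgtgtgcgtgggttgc
SUPT6H: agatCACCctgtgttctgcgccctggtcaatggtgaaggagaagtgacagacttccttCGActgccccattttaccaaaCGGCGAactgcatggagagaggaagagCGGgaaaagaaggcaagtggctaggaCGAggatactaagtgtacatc
SUPT16H: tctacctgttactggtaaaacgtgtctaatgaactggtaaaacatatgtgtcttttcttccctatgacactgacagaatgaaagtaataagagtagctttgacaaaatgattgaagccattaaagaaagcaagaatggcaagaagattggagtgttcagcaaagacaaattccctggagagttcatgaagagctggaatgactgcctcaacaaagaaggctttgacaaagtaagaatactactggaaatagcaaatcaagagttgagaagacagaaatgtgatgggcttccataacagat
SSRP1: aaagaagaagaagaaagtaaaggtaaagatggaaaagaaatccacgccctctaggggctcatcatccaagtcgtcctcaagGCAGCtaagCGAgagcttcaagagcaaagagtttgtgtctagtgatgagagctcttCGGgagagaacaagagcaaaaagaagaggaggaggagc

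The first comparison asked whether the 10 genes took a larger share of clusters in the SCAF4 and SCAF8 IPs than in the inputs of the same extracts. Of 8 genes with enough clusters to be tested, SUPT6H, LEO1 and CDC73 were called higher in the IPs and none was called lower (limma, Benjamini-Hochberg adjusted p under 0.05). Over all 5315 genes tested 24.3% were called higher and 2.62% lower. The median log2 difference was 1.14 over the 8 genes and 0.70 over all genes tested, and with the 2 genes that had no input cluster set at their lower bounds the median of the 8 was 0.80. In simulated lists of these lengths genes that had not been changed also had a median above 0, so each difference is read beside the median of all genes. CTR9 and RTF1 had fewer than 10 clusters over the 18 lists and were not tested. That minimum counts all lists, and SUPT6H (45 of 47 clusters), LEO1 (16 of 16) and CDC73 (16 of 18) passed it through their SCAF IP clusters. Genes of this kind could hardly be called lower, here or in the comparisons below, so their calls are descriptions. The share over all genes was taken under the same minimum.

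**Figure D1:**
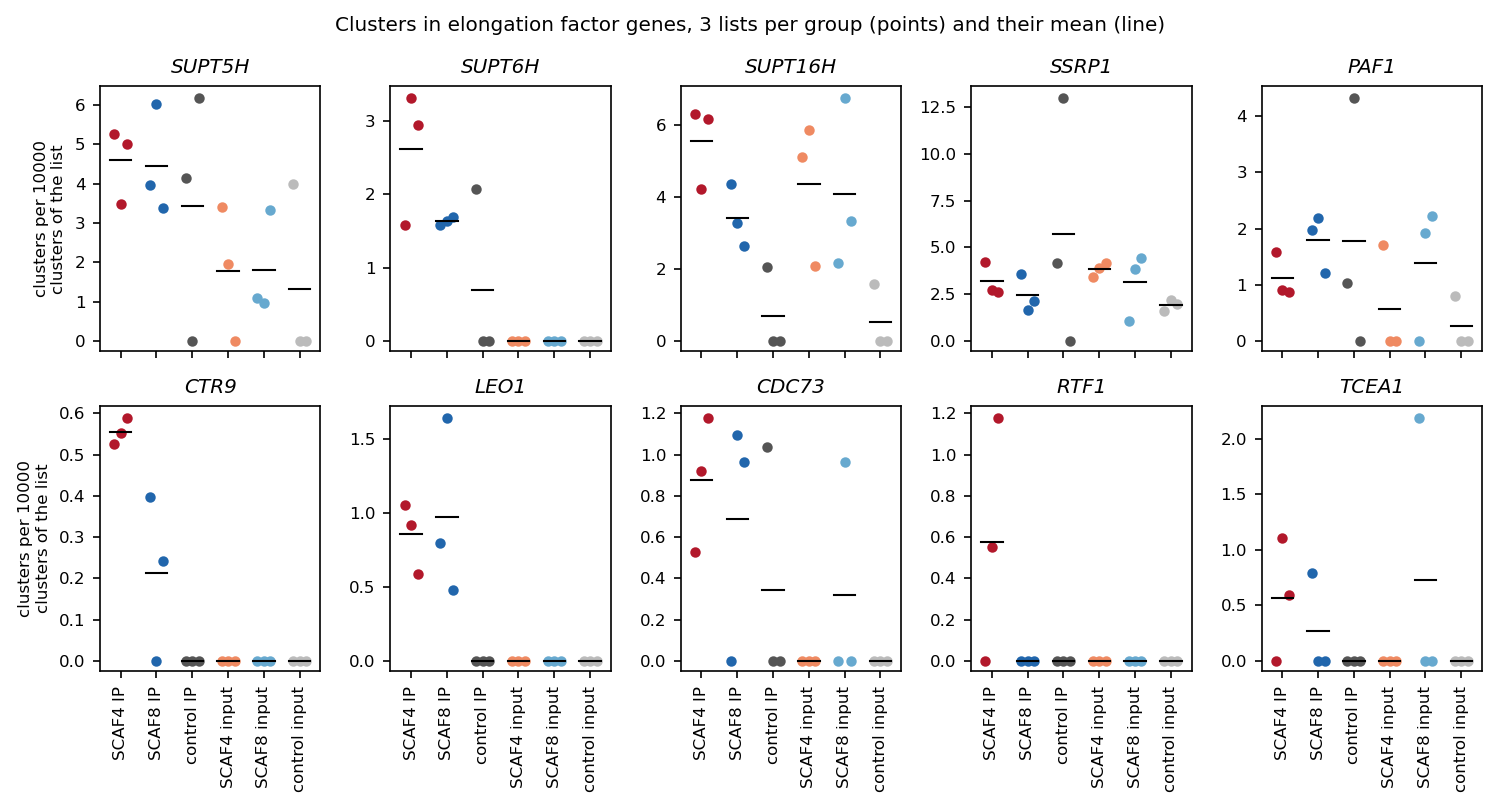
Clusters per 10000 clusters of the list (vertical axis) in each of the 10 genes for the 3 lists of every group, with points for lists in replicate order and a line for their mean. SUPT6H and LEO1 had clusters in all 6 SCAF4 and SCAF8 IP lists and in no input, whereas SUPT16H and SSRP1 had clusters in every SCAF4 and SCAF8 input list.

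SUPT5H (ENSG00000196235.14, chr19:39436156-39476670, plus strand) encodes the subunit of DSIF that contacts the polymerase. It held 10, 19 and 17 clusters in the SCAF4 IP lists and 10, 11 and 14 in the SCAF8 IP lists. Inputs of the SCAF4 line held 4, 1 and 0 clusters, those of the SCAF8 line 1, 1 and 3, and those of parental cells 5, 0 and 0. Scaled to 10000 clusters the IPs had 4.59 ± 0.96 (SCAF4, SD, n = 3) and 4.45 ± 1.39 (SCAF8), and the inputs 1.79 ± 1.71 and 1.80 ± 1.33. The lowest IP list lay just below the highest of the own inputs. SUPT5H was not called by limma (log2 difference 1.55 ± 0.78 SE, adjusted p = 0.147). It was called by an exact permutation of the list labels (two-sided p = 0.00433, Benjamini-Hochberg adjusted p = 0.0343). Control IP lists held 4, 0 and 1 clusters, up to 6.17 per 10000, which overlapped the SCAF IP lists.

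SUPT6H (ENSG00000109111.15, chr17:28662198-28702679, plus strand) encodes a histone chaperone that travels with the elongating polymerase. It held 3, 18 and 10 clusters in SCAF4 IP and 4, 3 and 7 in SCAF8 IP. None of the 9 inputs held a cluster, and control IP lists held 2, 0 and 0. The SCAF4 and SCAF8 IP lists thus all stood above their inputs, a separation that 6.32% of all genes tested showed. The mean of 2.12 per 10000 in the 6 IP lists was at least 3.55-fold higher than the limit that no cluster among the 50137 of the 6 own inputs allows (3 clusters over the group). The fitted log2 difference was 2.86 ± 0.49 (adjusted p = 0.000254 in limma). This value, its SE and its limma p depend on the prior count, because no input held a cluster. Exact permutation gave p = 0.00216, the smallest that 6 lists against 6 allow (adjusted p = 0.0213). SUPT6H was also called in SCAF4 IP alone and in SCAF8 IP alone.

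The FACT complex, formed by the proteins of SUPT16H and SSRP1, removes and replaces histone dimers during transcription. SUPT16H (ENSG00000092201.10, chr14:21351476-21384019, minus strand) had the most clusters of the 10 genes, 110 over the 18 lists. It held 12, 23 and 21 clusters in SCAF4 IP, 11, 6 and 11 in SCAF8 IP and 2, 0 and 0 in control IP. Inputs held 6, 3 and 1 in the SCAF4 line, 2, 7 and 3 in the SCAF8 line and 2, 0 and 0 in parental cells. Per 10000 clusters the level was 5.58 ± 1.17 in SCAF4 IP, 3.43 ± 0.87 in SCAF8 IP, 4.36 ± 2.00 in SCAF4 input and 4.09 ± 2.38 in SCAF8 input. The IP lists fell among the input lists, and the difference was 0.15 ± 0.60 on the log2 scale (limma, adjusted p = 0.877). Its sign turned without replicate 1 or without replicate 3.

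SSRP1 (ENSG00000149136.9, chr11:57325986-57335892, minus strand) gave 8, 15 and 9 clusters in SCAF4 IP and 9, 3 and 9 in SCAF8 IP. Its inputs gave 4, 2 and 2 clusters in the SCAF4 line and 1, 4 and 4 in the SCAF8 line, and every parental input list held at least 1. Control IP gave 4, 3 and 0 clusters, so that its second list, with 13.0 per 10000, was the highest of all 18. SSRP1 was the only one of the 8 genes whose fitted difference from own inputs was negative (−0.22 ± 0.64 on the log2 scale, adjusted p = 0.826 in limma). The sign turned when the highest-scoring clusters alone were used (0.94) and without replicate 2 or 3. Both FACT genes therefore took a share of the inputs that overlapped their share of the IPs.

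The PAF complex binds elongating polymerase and promotes histone modification along genes. PAF1 (ENSG00000006712.15, chr19:39385629-39391154, minus strand) held 3, 5 and 3 clusters in SCAF4 IP, 5, 4 and 5 in SCAF8 IP and 1, 1 and 0 in control IP. Its inputs held 2, 0 and 0 clusters in the SCAF4 line and 0, 2 and 2 in the SCAF8 line. The ranges per 10000 overlapped, 0.883 to 2.19 in the IPs and 0 to 2.22 in the own inputs (log2 difference 1.00 ± 0.71, adjusted p = 0.307 in limma).

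LEO1 (ENSG00000166477.13, chr15:51938025-51971778, minus strand) encodes an acidic subunit. It held 2, 5 and 2 clusters in SCAF4 IP and 2, 3 and 2 in SCAF8 IP, and no control IP or input list held any. Every SCAF4 and SCAF8 IP list was thus above every other list. Of all genes tested 6.32% had every SCAF IP list above the own inputs. In control IP the absence of a cluster allows up to 2.21 per 10000, more than LEO1 had in the IPs, so these lists cannot separate it. The mean of 0.913 per 10000 over the 6 IP lists was at least 1.53-fold higher than the limit for the own inputs (3 clusters over the group). The fitted difference was 1.87 ± 0.28 (limma, adjusted p = 6.9e-05), and exact permutation gave p = 0.00216 (adjusted p = 0.0213). Input lists without a cluster all took the value that the prior count sets and added no spread. The fitted difference, its SE and its limma p therefore depend on that count. Without replicate 2, or with the better-scoring clusters alone, LEO1 held too few clusters to be tested.

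CDC73 (ENSG00000134371.14, chr1:193121983-193254815, plus strand), which encodes the tumour suppressor parafibromin, held 1, 5 and 4 clusters in SCAF4 IP and 0, 2 and 4 in SCAF8 IP. The first control IP list and the second SCAF8 input list held 1 cluster each. The highest input list, 0.965 per 10000, lay within the range of the IP lists, 0 to 1.18. CDC73 was called by limma with 1.28 ± 0.46 on the log2 scale (adjusted p = 0.0450). The call was lost under exact permutation (adjusted p = 0.151), with a prior count of 2, with scaling by clusters in protein-coding genes, when genes with at least 1 cluster were tested (adjusted p = 0.0638 in limma), and without replicate 2 or 3.

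CTR9 (ENSG00000198730.9, chr11:10751246-10801625, plus strand), a scaffold subunit with tetratricopeptide repeats, held 1, 3 and 2 clusters in SCAF4 IP and 1, 0 and 1 in SCAF8 IP. RTF1 (ENSG00000137815.15, chr15:41408408-41483563, plus strand), which is needed for ubiquitination of histone H2B, held 0, 3 and 4 clusters in SCAF4 IP. Neither gene had a cluster in any input or control IP list, and RTF1 had none in SCAF8 IP. The level of CTR9 in the 6 IP lists, 0.384 per 10000, was below the limit of 0.598 that no cluster in the own inputs allows, so no fold is given. The same held for RTF1 with 0.288 per 10000. When the 9830 genes with at least 1 cluster were tested, limma called CTR9 higher in the SCAF IPs than in own inputs, among 1884 genes called higher. Both CTR9 and RTF1 were called higher in SCAF4 IP than in SCAF4 input, among 1548 genes. These fitted values depend on the prior count. RTF1 in SCAF4 IP, 0.576 ± 0.589 per 10000, was at least 1.63-fold higher than the limit for the 84978 clusters of SCAF8 IP, but 1 of the 3 SCAF4 IP lists held none.

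TCEA1 (ENSG00000187735.16, minus strand), encoding TFIIS, held 0, 6 and 2 clusters in SCAF4 IP and 2, 0 and 0 in SCAF8 IP. The first SCAF8 input list held 2 clusters and no other input or control IP list held any. Clusters were present in 3 of the 6 IP lists, and the fitted difference was 0.41 ± 0.44 on the log2 scale (limma, adjusted p = 0.516).

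Each protein was then compared with its own input. In SCAF4 IP against SCAF4 input, LEO1 (1.84 ± 0.39 on the log2 scale, adjusted p = 0.00293 in limma) and SUPT6H (3.13 ± 0.69, adjusted p = 0.00412) were called higher and no gene lower, where 16.6% of all genes tested were higher and 1.39% lower. CDC73 missed the threshold with an adjusted p of 0.0535 and passed it with the extract as a block (adjusted p = 0.0317 in limma). In SCAF8 IP against SCAF8 input, LEO1 (1.90 ± 0.39, adjusted p = 0.00765 in limma) and SUPT6H (2.60 ± 0.69, adjusted p = 0.0299) were called higher and none lower, where 4.95% of all genes were higher and 0.0753% lower. Fitted values for both genes rest on inputs without a cluster. The SUPT6H call in SCAF8 was lost with a prior count of 2 (adjusted p = 0.0733 in limma), with a minimum of 30 clusters (0.0590) and with the better-scoring clusters alone (0.20). No gene tested of the 10 was called in either comparison without replicate 2 or without replicate 3, which leave 2 lists per group, and LEO1 was not tested without replicate 2.

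**Figure D2:**
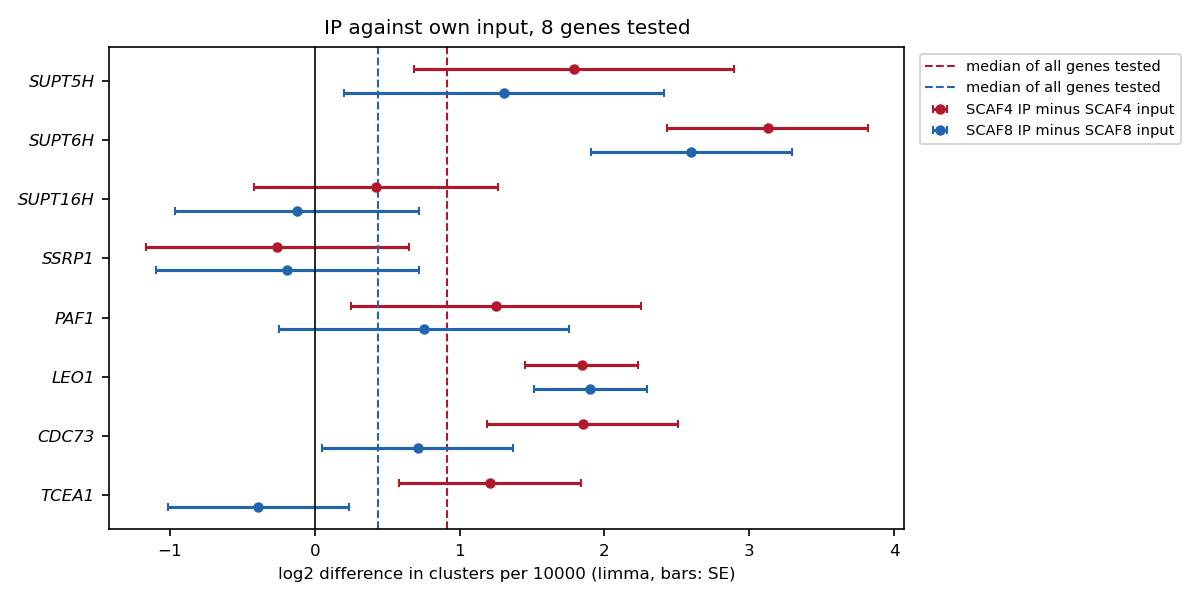
Log2 difference in clusters per 10000 between IP and own input (horizontal axis) for the 8 genes tested, with points for the limma estimate and bars for its SE, in red for SCAF4 and in blue for SCAF8. SUPT6H stood furthest right in both lines, and LEO1 lay right of the dashed medians of all genes tested (0.91 for SCAF4 and 0.44 for SCAF8).

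No difference between SCAF4 and SCAF8 was called in these genes. None of the 8 genes was called between SCAF4 IP and SCAF8 IP (limma, smallest adjusted p = 1.00, and 0 genes at an unadjusted p under 0.05), where 0.339% of all genes were called higher in SCAF4 IP and 0.0376% lower. The log2 differences ran from −0.54 for PAF1, with 11 clusters in SCAF4 IP and 14 in SCAF8 IP, to 0.66 for SUPT16H, with 56 and 28. Their median was 0.42 and that of all genes 0.091. The SE of these differences was 0.39 for LEO1 and 1.11 for SUPT5H, so differences of that size were not detectable with these lists. The interaction of line and IP was not called for any of the 8 genes (smallest unadjusted p = 0.0849 in limma, for TCEA1).

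Against the control IP, which shows what the FLAG resin recovers without a tagged protein, LEO1 (1.87 ± 0.34, adjusted p = 0.00104 in limma), SUPT16H (2.88 ± 0.73, adjusted p = 0.00711) and SUPT6H (1.90 ± 0.60, adjusted p = 0.0222) were called higher and none lower. Of all genes 30.3% were called higher and 3.57% lower, with a median log2 difference of 1.19. SUPT16H had 0.692 ± 1.20 clusters per 10000 in control IP against 4.50 ± 1.49 in the 6 SCAF IP lists. For SUPT6H the first control IP list, at 2.08 per 10000, lay within the SCAF IP range of 1.58 to 3.31. Control IP lists 2 and 3, of 2314 and 1621 clusters, held no SUPT6H cluster. LEO1 in the IPs lay below the limit that no cluster among the 13573 of control IP allows, so for LEO1 no fold is given. Its fitted difference and call here rest on the prior count, and these lists cannot separate LEO1 from control IP. The calls of SUPT16H and SUPT6H were lost without replicate 2, where LEO1 had too few clusters to be tested, all 3 calls were lost without replicate 3, and the control IP lists of replicates 2 and 3 were the shortest of the 18.

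Other genes of elongation were counted for reference, 27 genes for further subunits of these complexes, NELF, the super elongation complex, elongin and the 7SK particle, of which 15 were tested. Against own inputs 3 were called higher and 1 lower, with a median log2 difference of 0.56. Of all genes tested 24.3% were called higher and 2.62% lower there, with a median of 0.70. MLLT3, a subunit of the super elongation complex, was higher by 1.86 ± 0.58 on the log2 scale (limma, adjusted p = 0.0213), and MEPCE, which caps 7SK RNA, by 1.65 ± 0.55 (adjusted p = 0.0298). In parental inputs, however, the mean log2 level of MLLT3 was 2.03, above SCAF4 IP (0.99) and SCAF8 IP (0.37). NELFA, a subunit of the pausing factor NELF, had 15 clusters in the SCAF IP lists and none in control IP or inputs (limma adjusted p = 0.000508). NELFA thus passed the minimum of clusters through its SCAF IP clusters alone and could hardly be called lower. Its limma p depends on the prior count, because no input held a cluster, so the call of NELFA is a description. Among genes of the list with many SCAF IP clusters, ELOA of elongin had 59, IWS1, a partner of SUPT6H, had 55 and NELFCD had 50. Inputs held 22, 8 and 11 clusters in ELOA, IWS1 and NELFCD and control IP 3, 1 and 5, and none of these genes was called against own inputs. The pattern of SUPT16H over the 18 lists was most like those of GPBP1L1 (Pearson r = 0.948), FASN (0.945) and GGA2 (0.942) among 5314 genes, and the lists share their lengths, so these correlations are descriptions.

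The positions of the clusters were then compared. Taking for each gene the isoform whose exons sum to the most bases, 186 of 216 clusters of SCAF4 IP in the 10 genes had their midpoint in an exon (86.1%), as did 112 of 129 of SCAF8 IP (86.8%). Control IP had 18 of 19 in exons, the own inputs 55 of 58 (94.8%) and the parental inputs 11 of 12. Over all protein-coding genes the exon share was 63.5% ± 3.90 in the 6 SCAF IP lists and 62.3% ± 4.29 in the own inputs (SD, n = 6), a difference of 1.21 percentage points that was within the spread of the lists (two-sided exact permutation p = 0.628). The 10 genes thus had more exonic clusters than genes in general in both IPs and inputs, and their exon share was somewhat lower in IP than in input. Members of the group contribute unequally, and no test was made over them.

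Single lists spread around these shares. In SCAF4 IP the first list had 97.5% of 40 clusters in exons (95% Wilson interval 87.1 to 99.6), the second 83.3% of 102 (74.9 to 89.3) and the third 83.8% of 74 (73.8 to 90.5). The SCAF8 IP lists lay between 84.4% and 88.6%. All 3 SCAF4 input lists had every cluster in an exon, but with 16, 6 and 3 clusters. The intervals, which cover counting error only, overlapped between IP and input lists. Counting exons of any isoform raised the share to 93.9% in the SCAF IPs and 98.3% in the own inputs.

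**Figure D3:**
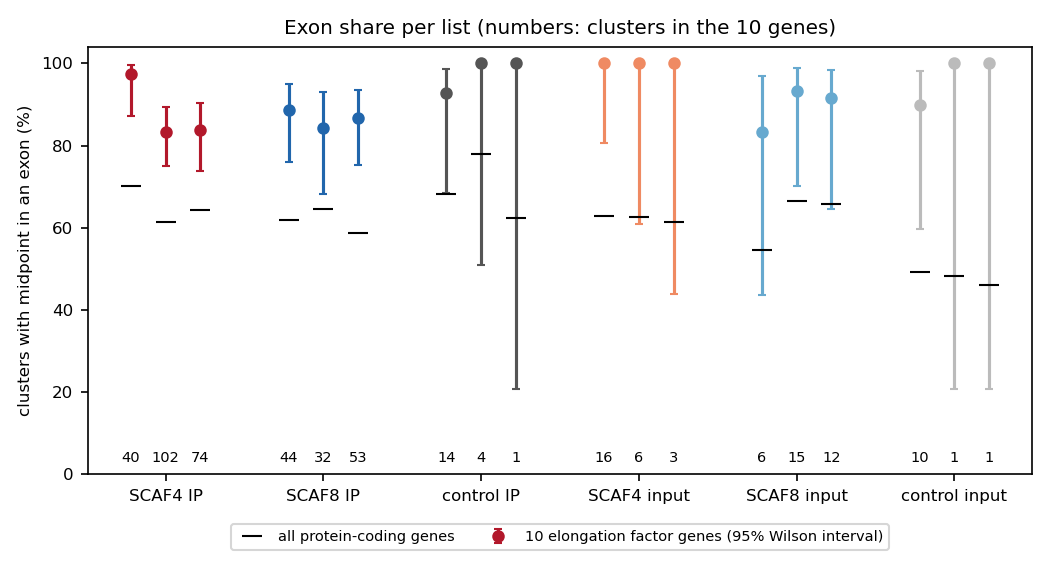
Percentage of clusters with the midpoint in an exon (vertical axis) in the 10 genes (points with 95% Wilson intervals) and in all protein-coding genes (black dashes) for each of the 18 lists, with the number of clusters in the 10 genes along the bottom. Points of every list lay above the dash of the same list, and intervals were wide where a list had under 20 clusters.

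SUPT5H carried most of the intronic clusters. It held 28 of the 47 intronic SCAF IP clusters of the 10 genes, SUPT16H 9, TCEA1 4 and RTF1 2. Of its 81 SCAF IP clusters 65.4% were exonic, whereas 44 of 45 were exonic in SUPT6H, 52 of 53 in SSRP1, and all in PAF1 (25) and LEO1 (16). The SSRP1 value depends on its longest isoform, a transcript with retained introns, and with the canonical isoform 5 of the 53 were intronic. Per kilobase of exon, SUPT16H had 16.9 clusters over the 6 SCAF IP lists, SUPT5H 13.6, PAF1 11.4, SSRP1 8.26, LEO1 7.39 and SUPT6H 6.87, and the other 4 genes had 0.994 to 2.56. Per kilobase of intron SUPT5H had 0.900, and none of the other genes exceeded 0.320 by these isoforms. For SSRP1 the longest isoform has 6296 exonic bases and the canonical isoform 2831. Its exon and intron densities, and its place among the genes, therefore depend on the isoform, and densities by the canonical isoform were not computed.

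No intron of SUPT5H held more clusters than intron 13. Intron 13 (chr19:39466746-39468755, 2010 nt) held 15 of the 28, with 1, 3 and 2 in the SCAF4 IP lists and 1, 4 and 4 in the SCAF8 IP lists. The first control IP list, the third SCAF8 input list and the first parental input list held 1 cluster each there. All 6 SCAF IP lists thus had at least 1 cluster in the intron. An annotated isoform, ENST00000599335.5, retains the 3′ part of this intron, and 22 of the 28 intronic clusters lay within exons of some other isoform than the longest. In intron 13 a region of 365 nt (chr19:39468023-39468387) had clusters in all 6 SCAF IP lists, 1 control IP list and 2 input lists.

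**Figure D4:**
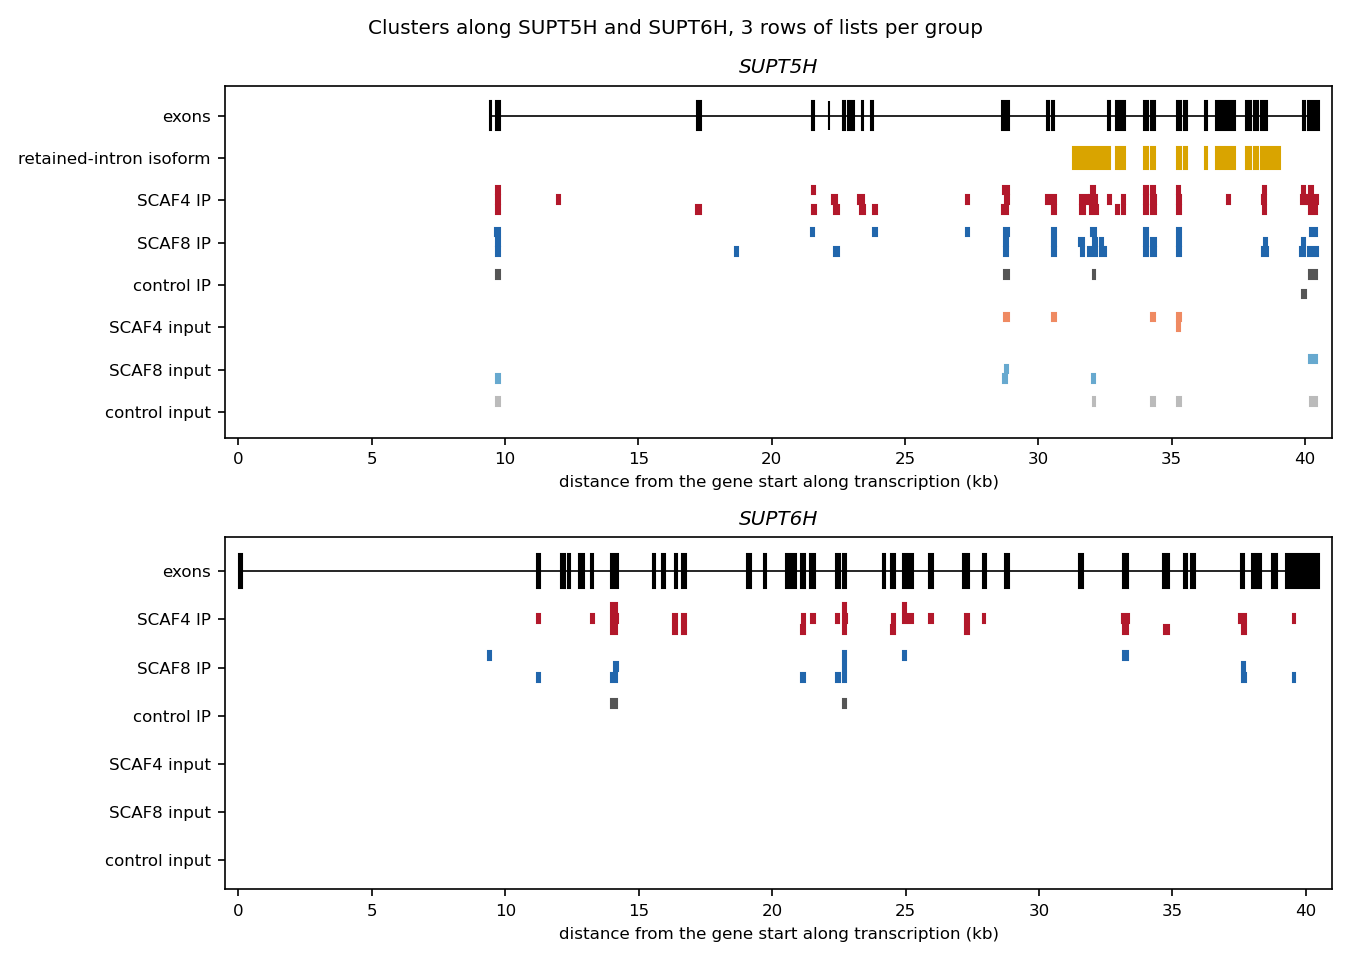
Clusters along SUPT5H and SUPT6H, by distance from the gene start in the direction of transcription (kb), with canonical exons in black, the retained-intron isoform of SUPT5H in yellow and 3 rows per group for the 3 lists. Of the 81 SCAF IP clusters of SUPT5H 53 were exonic and 15 lay in intron 13, at about the start of the yellow isoform. In SUPT6H 44 of 45 SCAF IP clusters were exonic.

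The ratio of exon to intron clusters was tested in genes with clusters in at least 2 lists of each of the SCAF4 and SCAF8 IPs and inputs. Of 1895 genes tested 2.85% were called higher in IP than in input and 1.11% lower, and these calls were all lost with the extract as a block (0 genes, 393 at an unadjusted p under 0.05 in limma). SUPT5H, SUPT16H and SSRP1 could be tested and none was called. The log2 ratio was lower in IP for SUPT5H (difference −0.86 ± 0.44, adjusted p = 0.290 in limma) and turned to 1.35 with exons of any isoform (adjusted p = 0.265). For SUPT16H the difference was 0.43 ± 0.69 (adjusted p = 0.766). For SSRP1 it was 1.20 ± 0.40 (adjusted p = 0.120), where all 21 input clusters and 52 of 53 IP clusters were exonic, so that this ratio follows the number of clusters. With the canonical isoform the SSRP1 difference was 0.13 (adjusted p = 0.947 in limma).

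Most exonic clusters lay in coding sequence. By the canonical isoforms, 257 of the 345 SCAF IP clusters of the 10 genes were in CDS (74.5%), 28 in 3′ UTRs (8.12%), 8 in 5′ UTRs and 52 in introns (15.1%). Over all protein-coding genes the SCAF IPs had 47.0% in CDS and 13.2% in 3′ UTRs. In the 9 inputs 50 of 70 clusters of the 10 genes were in CDS (71.4%) and 15 in 3′ UTRs (21.4%), against 32.2% and 23.6% over all protein-coding genes. Control IP had 15 of 19 clusters of the 10 genes in CDS (78.9%) and 2 in 3′ UTRs (10.5%), against 47.2% and 19.7%. Its 3′ UTR share in the 10 genes thus lay near that of the SCAF IPs, though from few clusters. The 3′ UTR clusters came from few genes, 14 of the 28 in SUPT16H and 7 in SSRP1, and for SSRP1 8 of 21 input clusters were in the 3′ UTR. PAF1, CTR9, LEO1, CDC73 and RTF1, the PAF complex genes, had no 3′ UTR cluster in any SCAF IP list.

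Clusters were also sorted by whether they crossed an exon-intron boundary of the canonical isoform, a class that was chosen after values had been seen and is given with no test. In the 10 genes 130 of 216 SCAF4 IP clusters (60.2%) and 58 of 129 SCAF8 IP clusters (45.0%) crossed a boundary, against 4 of 19 in control IP and 19 of 58 (32.8%) in the own inputs. Single lists gave 47.5%, 60.8% and 66.2% in SCAF4 IP and 47.7%, 43.8% and 43.4% in SCAF8 IP. The ranges of the 2 proteins overlapped only at the first SCAF4 IP list. Own input lists ran from 16.7% to 50.0% and control IP lists from 14.3% to 100%, with 1 to 16 clusters each, so all SCAF8 IP lists and the first SCAF4 IP list lay within the range of the own inputs. Over all protein-coding genes 26.3 to 36.3% of clusters crossed a boundary in the 6 SCAF IP lists and 14.2 to 16.6% in the own inputs. Clusters wholly in introns made up 32.8% of SCAF IP clusters over all genes and 9.28% in the 10 genes. With these left out, 66.3% crossed a boundary in the 10 genes and 50.3% in all genes for SCAF4 IP. For SCAF8 IP the shares were then 49.6% and 42.3%, and for the own inputs 34.5% and 23.9%. The median length of the SCAF IP clusters was 152 nt in the 10 genes and 148 nt in all genes. In the own inputs it was 132 nt in the 10 genes and 146 nt in all genes, and the part of cluster length in the shares was not tested.

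Boundary-crossing clusters included 80 over the 5′ splice site alone, 51 over the 3′ splice site alone and 57 over both ends of an exon. The share was highest in SUPT16H (54 of 84) and SUPT6H (28 of 45) and low in LEO1 (4 of 16), where 14 of the 16 clusters lay in 1 region over the long exon 2. In SUPT5H 46 of 81 crossed a boundary, 21 of them over the 5′ splice site alone. A cluster that crosses a boundary contains intronic sequence, also where its midpoint counts as exonic. Control IP had 14 of 19 clusters within exons.

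**Figure D5:**
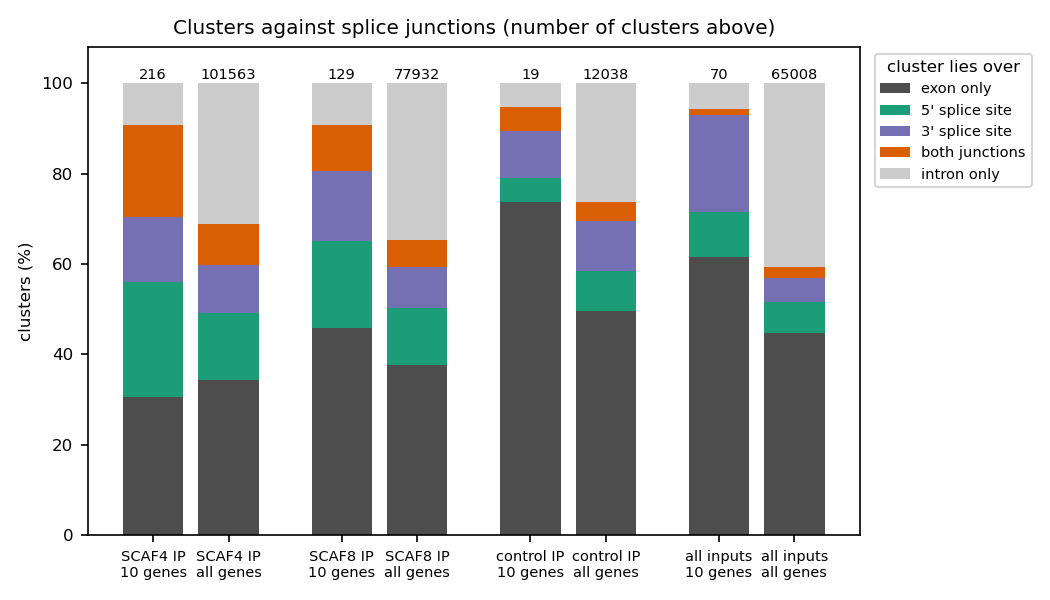
Percentage of clusters (vertical axis) within an exon, over a 5′ splice site, over a 3′ splice site, over both or within an intron of the canonical isoform, for the 10 genes and all protein-coding genes in SCAF4 IP, SCAF8 IP, control IP and all inputs, with the number of clusters above each bar. The boundary classes (colours) made up 60.2% of SCAF4 IP clusters in the 10 genes and 32.9% of input clusters.

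Regions of SCAF4 and SCAF8 were compared next. Merging the clusters of the 6 SCAF IP lists gave 115 regions in the 10 genes, of which 58 (50.4%) had clusters of both proteins, 49 of SCAF4 only and 8 of SCAF8 only. Over all protein-coding genes 42.9% of 66250 regions had both. Clusters of all 6 lists were present in 16 regions (13.9%, and 8.23% over all genes) and of 1 list only in 38 (33.0%, and 45.0% over all genes). The regions touched 95 of the 206 canonical exons. SCAF4 IP lists held more clusters in total, and the part of this in the regions with SCAF4 alone was not tested.

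The number of regions with both proteins differed between the genes, from 15 in SUPT5H and 13 in SUPT16H to 1 each in LEO1 and TCEA1 and 0 in RTF1. SUPT5H had 5 regions present in all 6 lists, over exons 2, 11, 17 and 19 and in intron 13, and SUPT16H had 4, over exons 4, 12 to 13 and 26. Over exons 24 and 25 of SUPT16H, a region at chr14:21353487-21353833 had clusters of 5 IP lists and none of control IP or inputs. PAF1 had 3 regions of all 6 lists, in exons 9, 10 and 14, among 6 regions in all. In LEO1 14 of 16 clusters lay in the exon 2 region of 776 bases, of which 300 are shown above. CDC73 had a region of 94 nt at exon 6 in 5 lists, and the most frequent region of CTR9, in its last exon 25, was in 4 lists. RTF1 had 5 regions, none in more than 2 lists, and 1 of its regions in 2 lists lay within intron 1. TCEA1 had 7 regions, with 3 wholly intronic and 1 shared by both proteins.

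Consensus regions were then formed by steps adapted from the study's methods, from clusters of at least 2 of 3 replicates after removal by input overlap, input density and control IP. Here overlap was counted in input lists and density in merged input regions over the gene and its flanks, so the regions are not those of the study. SCAF4 had 66 regions in the 10 genes before and 18 after removal, 8 of them in SUPT6H, 3 in CDC73, 2 each in CTR9, RTF1 and TCEA1 and 1 in LEO1. SCAF8 had 41 before and 4 after, 2 in LEO1 and 1 each in SUPT6H and CDC73. Over the whole series 10748 of 29539 regions remained for SCAF4 and 5714 of 21300 for SCAF8, larger shares than in the 10 genes. SUPT5H, SUPT16H, SSRP1 and PAF1 had none left, because their merged input regions, 1.57, 2.74, 6.47 and 4.20 per 10 kb, exceeded the limit of 1 per 10 kb. Without this step 43 regions for SCAF4, in all 10 genes, and 19 for SCAF8, in 7 genes, remained. Over the whole series 17910 and 9988 regions then remained. The 4 genes removed by density were 4 of the 5 with the most SCAF IP clusters.

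Short sequence motifs were counted in the 100 nt around the midpoint of each region. CGG or CGA occurred in 80 of 115 regions of the 10 genes (69.6%) and in 64.2% of all regions in protein-coding genes. Any of the 4 motifs built around CAG occurred in 52.2% and 42.9%, the motif CACC in 31.3% and 25.5%, and the motif CTCC in 21.7% and 32.5%. T made up 23.1% of bases, against 25.3% in all regions, and G 28.7% against 27.4%. Of the sequences shown, SUPT6H had 5 matches to CGG or CGA, SUPT5H and LEO1 4 each, and SUPT16H no match to any of the motifs although all 6 SCAF IP lists had a cluster there.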

How the data were processed

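PAR-CLIP clusters were taken from the 18 deposited lists, which hold coordinates (GRCh38), strand and a score for every cluster. The authors made these lists by trimming reads (Trim Galore, cutadapt), aligning them with Bowtie2 2.2.9, removing duplicates with Picard, combining the soluble and chromatin fractions (36 libraries) and calling clusters with PARalyzer. The score in the deposited lists ran from 0.501 to 1, has no stated meaning, and served here to select the better-scoring part of each list in an alternative. Filters on inputs and control IP had not been applied to the lists. Replicate 1 was sequenced with longer reads than replicates 2 and 3. The lists hold no reads, so depth is unknown, intervals and floors cover counting error only, and count models could not be used.

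Clusters were counted by midpoint and strand in protein-coding genes of GENCODE 44. Counts were scaled to 10000 clusters of the list, and genes with at least 10 clusters over the 18 lists (5315) were tested on log2 values with a prior count of 0.5 (limma 3.58.1 in R 4.3.3, trend, 6 groups, Benjamini-Hochberg adjustment at 0.05). The ratio of exon to intron clusters was tested with limma on log2 values with the same prior count. Exact permutations of list labels were two-sided, and 3 lists against 3 cannot go below p = 0.1. Exons were those of the isoform whose exons sum to the most bases, and exon numbers, CDS, UTRs and boundaries those of the Ensembl canonical isoform. Consensus regions used an overlap of at least 1 nt and 2000 nt flanks for input density. Scripts ran in Python 3.11.15 (with scipy 1.17.1 for permutations, pandas 2.3.3 and numpy 2.4.6 for tables, matplotlib 3.10.9 for plots and pysam 0.24.0 for sequences) and were tested on simulated data. The exon to intron test called unchanged genes more often than its threshold allows when lists differed in length. In the simulated cluster lists limma recovered part of the changed genes, and genes that had not been changed had a median difference above 0. The exact permutation test recovered none of the changed genes there after adjustment, because its smallest p needs many genes at that value to pass.

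Named genes were the 10 genes, the 4 of the further elongation genes with the most SCAF IP clusters and those called against own inputs, and the 3 genes most like SUPT16H. The values of 1 gene that this rule named are not reported here. Printed regions were those with most IP lists and fewest background lists per gene, restricted afterwards to regions without UTR bases. The genes, lists and motifs were chosen with earlier results of these data known. Each input came from 1 extract with its IP, so the replicate number pairs them. Deviations from the group means correlated by 0.029 to 0.309 (median 0.133) in the 6 pairs of the same extract and by −0.229 to 0.126 in 12 pairs of different numbers. The extract was used as a block in an alternative. Alternatives for scaling, prior count, minimum of clusters, gene assignment, score, isoform, replicates and test are given in the closing section.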

Additional observations from a re-analysis of the deposited data

How the results depend on the processing

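Cluster lists without reads set the limits of these results. Each group has 3 lists, control IP lists are short, and genes with few clusters move by 1 cluster. Of 417 values recomputed for the 10 genes under other settings, 350 kept direction and side of the threshold, 22 lost the call, 18 gained it and 27 turned sign. Of 121 summary values, 61 kept their side or size. The cause of a change was not tested. Score below means that the better-scoring clusters of each list alone were used (score at least the list's median).

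Genes called in SCAF IPs against own inputs (1428) numbered 4005 without scaling by list length, 357 with at least 30 clusters, 437 by score, 792 by exact permutation on the log2 values and 790 by exact permutation without the log, an alternative chosen after seeing the data, and 176 to 1527 with 1 replicate left out. By either permutation LEO1, SUPT5H and SUPT6H were called. Without scaling 7 of the 8 genes were called. With at least 1 cluster (2015 genes called) CTR9, LEO1 and SUPT6H were called and CDC73 was not. For SCAF4 IP against its input (957) the numbers were 3478 without scaling, 1622 with at least 1 cluster, 210 with at least 30, 182 by score and 3 to 1592 with 1 replicate left out. For SCAF8 IP against its input (267) they were 1388 without scaling, 123 with a prior count of 2, 16 with at least 30 clusters, 21 by score and 0 to 547 with 1 replicate left out. Against control IP (1803) they were 4606 without scaling, 730 with at least 30 clusters, 396 by score and 0 to 2504 with 1 replicate left out. Between SCAF4 IP and SCAF8 IP (20) they were 148 with at least 1 cluster, 0 with at least 30, 1 by score and 0 to 96 with 1 replicate left out. Exon ratio calls (75) numbered 121 with exons of any isoform, 133 with any overlap, 7 by score and 0 to 47 with 1 replicate left out.

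Signs of log2 differences turned as follows, with ranges for 1 replicate left out. Against own inputs SUPT16H ran from −0.070 to 0.58 and SSRP1 from −0.77 to 0.052, and SSRP1 gave 1.48 without scaling and 0.94 by score. In SCAF4 alone SUPT16H ran from −0.078 to 0.86, and SSRP1 gave 1.83 without scaling and 1.24 by score. In SCAF8 alone SUPT16H ran from −0.64 to 0.30, SSRP1 from −1.02 to 0.26 and PAF1 from −0.29 to 1.48. Without scaling SUPT16H gave 1.24 and SSRP1 1.13 there, and by score 0.079 and 0.64. Against control IP SUPT5H ran from −0.21 to 2.02, SSRP1 from −1.26 to 1.48 and PAF1 from −0.39 to 1.34, and SSRP1 gave −0.20 with a prior count of 2. Between SCAF4 and SCAF8 SUPT5H ran from −0.18 to 0.45 and gave −0.051 by score, and LEO1 gave 0.22 without scaling. For the exon ratio SUPT16H ran from −0.14 to 1.22, and SUPT5H gave 1.35 with exons of any isoform.

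With the extract as a replicate block, counts were 1623 for both IPs against own inputs, 1163 for SCAF4, 226 for SCAF8 and 0 for the exon ratio. CDC73 in SCAF4 was the only one of the 10 genes whose call changed with this pairing (adjusted p = 0.0317 in limma).

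The exon share of all genes differed by 5.56 points by score (exact permutation p = 0.0498) and by −1.87 to 2.84 with 1 replicate left out. The mean exon share of the 10 genes in SCAF8 IP, 86.6%, was 96.1% with exons of any isoform, 91.5% with any overlap and 80.8% by score. Consensus regions (18 and 4) were 3 and 1 with all 3 replicates, 43 and 19 without the density step, 7 for SCAF8 without the control IP step, 6 for SCAF4 by score, and 4 to 32 and 1 to 16 with 1 replicate left out. Over whole regions CGG or CGA occurred in 82.6%, any of the 4 motifs built around CAG in 62.6%, the motif CTCC in 41.7% and the motif CACC in 45.2%.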
